A study of Mus musculus with 12 samples.

Results

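Messenger RNA of 34 genes of DNA replication and S phase was followed in colon epithelium of mice under chemically induced colitis and carcinogenesis. The genes were taken from a list of symbols of genes that work in copying DNA. All 34 were present among the 24391 gene symbols of the deposited tables, and all 34 were among the 12052 genes that passed the filter on low values (FPKM of at least 1 in at least 4 libraries). FPKM relates reads to the length of the gene and the size of the library, so levels of different genes can be set side by side on it.

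The series title gives as its subject the transcriptome of colon cancer hastened by colitis, and its block by curcumin. There were 12 libraries of total RNA, 4 from untreated control mice, 4 from mice given AOM and DSS, and 4 from mice given AOM, DSS and curcumin, here called curcumin. AOM is azoxymethane, a carcinogen that targets the colon. DSS is dextran sulfate sodium, which injures the colon lining and causes colitis. Curcumin is the yellow polyphenol of turmeric. All mice were C57BL/6 of 18 weeks, the labels name no engineered allele, and they state neither doses nor the times of treatment. The cells were scraped from the colon mucosa after removal of the proximal segment and of right-sided tumours, and were spun slowly and washed against blood cells. The libraries therefore hold scraped mucosa and not the tumours of the right colon. Whether each library came from its own animal is not stated in the labels, so the p-values below measure the spread between these samples, which may be technical.

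Replication starts at origins. In G1 the origin recognition complex, with Cdc6 and Cdt1, loads the ring-shaped helicase Mcm2 to Mcm7, a step called licensing. At the start of S phase, cyclin E kinase and a second kinase (Cdc7 with Dbf4) let Cdc45, the GINS complex and Mcm10 join the ring and switch the helicase on. Polymerases with the sliding clamp Pcna then copy both strands, ribonucleotide reductase and its companions supply deoxynucleotides, and chromatin assembly factors wrap the new DNA. Many of these genes are switched on together at the G1/S boundary by E2F transcription factors, and in the colon the dividing cells that use them sit in the lower crypt.

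Because these genes are known as E2F targets, their promoters were searched for 4 forms of the E2F site, TTTCCCGC, TTTGGCGC, TTTCGCGC and TTTGCCGC, on both strands. The window ran from 250 bases before to 50 bases after each start in the RefSeq promoter table (GRCm38.p6), which held 33 promoters of 29 of the 34 genes. A match stood in 11 of the 33 promoters (33.3%), against 2.26% of all 32851 promoters in the table and 3.79% of the promoters of genes tested here. Matches stood in 7 of the 8 licensing genes in the table, Mcm2 being the exception, and in 4 of the 21 genes of other roles, which were Pola1, Pold1, Rfc3 and Lig1. The other motifs searched are shorter words with a larger background share, which limits how far a ratio to that share can rise. Their ratios are therefore not compared with that of the E2F site. CCAAT (the NF-Y box) was in 51.5% of member promoters, against 37.4% of all and 37.7% of those of genes tested. GGGCGG (an Sp1 box) was in 69.7%, against 35.7% of all but 61.7% of those of genes tested. TTTGAA (a core of the CHR element of mitotic genes) was in 9.09%, against 17.9% of all but 12.1% of those of genes tested. Shown here, to let the shared letters be seen, are stretches of 6 promoters: those with a match lying before the start site whose genes had the largest differences between AOM/DSS and control. Each runs 5′ to 3′ on the gene's strand and ends before the start site, and capitals mark the E2F matches, which overlap where a run of capitals is longer than 8 letters.
Orc1, chr4:108579387-108579453, plus strand: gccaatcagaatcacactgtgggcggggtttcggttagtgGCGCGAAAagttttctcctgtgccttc
Mcm7, chr5:138172001-138172088, minus strand: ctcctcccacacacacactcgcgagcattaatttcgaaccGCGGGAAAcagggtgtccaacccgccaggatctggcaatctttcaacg
Mcm5, chr8:75109316-75109407, plus strand: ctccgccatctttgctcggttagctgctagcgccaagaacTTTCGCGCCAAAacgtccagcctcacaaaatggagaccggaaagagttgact
Cdc6, chr11:98907973-98908060, plus strand: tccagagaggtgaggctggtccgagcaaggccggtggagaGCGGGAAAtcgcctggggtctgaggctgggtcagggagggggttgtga
Pola1, chrX:93632246-93632333, minus strand: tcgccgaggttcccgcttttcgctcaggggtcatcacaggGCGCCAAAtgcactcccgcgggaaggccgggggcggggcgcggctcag
Mcm6, chr1:128359706-128359855, minus strand: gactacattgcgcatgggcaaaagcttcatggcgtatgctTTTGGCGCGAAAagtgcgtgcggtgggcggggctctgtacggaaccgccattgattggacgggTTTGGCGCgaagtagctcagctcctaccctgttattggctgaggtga
The Mcm6 stretch held 3 matches and the Mcm5 stretch 2, and the match of Orc1 began 27 bases before the start. A match is a run of letters and no measure of binding.

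Libraries held 5568112 to 15968828 recovered reads, control replicate 1 being the shallowest, and 15399 to 17127 genes above 0. A gene of the set had between 5 reads (Ccne1, control replicate 1) and 2242 reads (Pcna) in a library, with a median of 164. Epithelial markers (11 genes, among them Epcam, Cdh1 and Vil1) summed to 7567 to 11445 FPKM in control, 7120 to 10464 in AOM/DSS and 7190 to 12223 in curcumin, so the labelled cell type was present in every library. The libraries fell in 2 kinds by base composition: in 5 (control replicate 0, AOM/DSS replicates 0 and 1, curcumin replicates 0 and 1) genes rich in G and C stood above their mean over all libraries, and in the other 7 below it. The kinds are called GC-rich and AT-rich libraries here, and each group held some of both. The median GC content of the 34 genes, 50.4%, was close to that of all genes tested, 50.8%.

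The replication genes stood slightly higher on average in AOM/DSS than in control, but libraries within the control and within the AOM/DSS group lay further apart than the group means, and 1 gene of 34, Orc1, passed the test. The mean was higher in AOM/DSS for 32 of 34 genes, against 52.8% of all genes tested. The median difference was 0.31 on the log2(FPKM + 1) scale, against 0.02 over all genes tested. With curcumin the mean was lower than in AOM/DSS for 29 of 34, while 49.1% of all genes were higher. The median difference was -0.22 against -0.01 over all genes, and none of the 34 passed. Curcumin and control differed by a median of 0.10, with 26 of 34 higher in curcumin and none past the test. Of all genes, 52.5% were higher in curcumin than in control. The 34 genes moved together from library to library, so these counts are not 34 independent results. These comparisons share their AOM/DSS or control libraries, so their differences are not independent of each other. In bulk RNA such as this, fewer dividing cells and less of these messages per cell cannot be told apart.

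**Figure D1:**
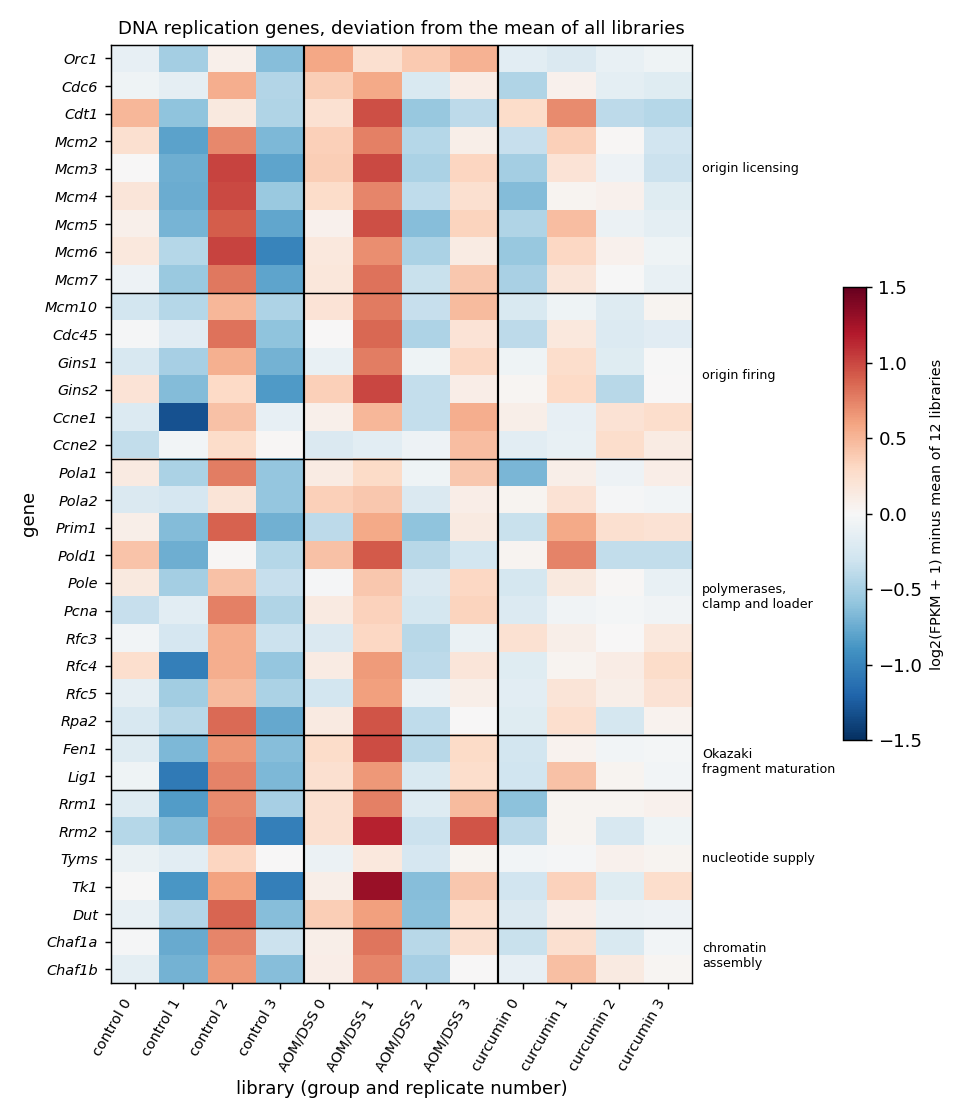
Heat map of the 34 replication genes (rows, by role) in the 12 libraries (columns, by group), coloured by log2(FPKM + 1) minus the gene's mean over all libraries. Control replicate 2 and AOM/DSS replicate 1 are high for nearly all genes and control replicates 1 and 3 are low, while Orc1 in the top row is high in the 4 AOM/DSS libraries.

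Orc1, the largest subunit of the origin recognition complex and the one whose amount follows the cell cycle, had 2.19, 1.44, 2.67 and 1.23 FPKM in the control libraries, 4.19, 3.10, 3.56 and 3.98 in AOM/DSS, and 2.09, 1.97, 2.2 and 2.3 in curcumin. Every AOM/DSS library lay above every control and every curcumin library, and the curcumin libraries lay within the range of the control libraries. Orc1 rose in AOM/DSS by 0.73 on the log2(FPKM + 1) scale (SE 0.16, limma adjusted p = 0.0488), from 1.88 ± 0.667 to 3.71 ± 0.484 FPKM (mean ± SD, n = 4). The call is narrow: it was lost in 19 of 26 alternative settings, 10 of them among the 12 in which 1 library was left out. The limma adjusted p was 0.0142 with library weights. It was 0.393 with the level of mitosis genes as a covariate, a fit chosen after seeing the data. The difference was 0.87 with library weights and 0.52 with that covariate. A fit on recovered reads, which is another scale, gave 1.00. Fits without a curcumin library left the difference at 0.73, since that group has no part in it. Leaving out AOM/DSS replicate 1 or control replicate 2 kept the call, and leaving out any other library lost it. Curcumin was lower than AOM/DSS by a difference of -0.58 (SE 0.16, limma adjusted p = 0.117), which passed only with library weights (adjusted p = 0.0374). Orc1 had 22 to 179 reads per library, and 10.8% of its exon bases are shared with a gene on the opposite strand (Gm12743), whose part was not tested.

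Called genes are few in this comparison. Over all genes tested 1.27% passed for AOM/DSS against control (adjusted p below 0.05), which makes 1 gene of 34 a share not far from the background. At an unadjusted p below 0.05 there were 2 of the 34 (Orc1 and Rrm2) against 13.5% of all genes. Without overlap between groups, all 4 AOM/DSS libraries lay above all 4 control libraries for 1 of 34 genes (Orc1), against 2.38% of all genes, and below them for 0 of 34, against 3.63%. The median standard error of the 34 genes was 0.30, against 0.17 over all genes, and the median 95% interval reached 0.66 to either side of a difference. Differences smaller than that had intervals that include 0 for a typical gene of the set. These intervals are not adjusted for the number of genes tested, so a call needed a larger difference. Rrm2, at 0.84 (SE 0.36), did not pass.

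**Figure D2:**
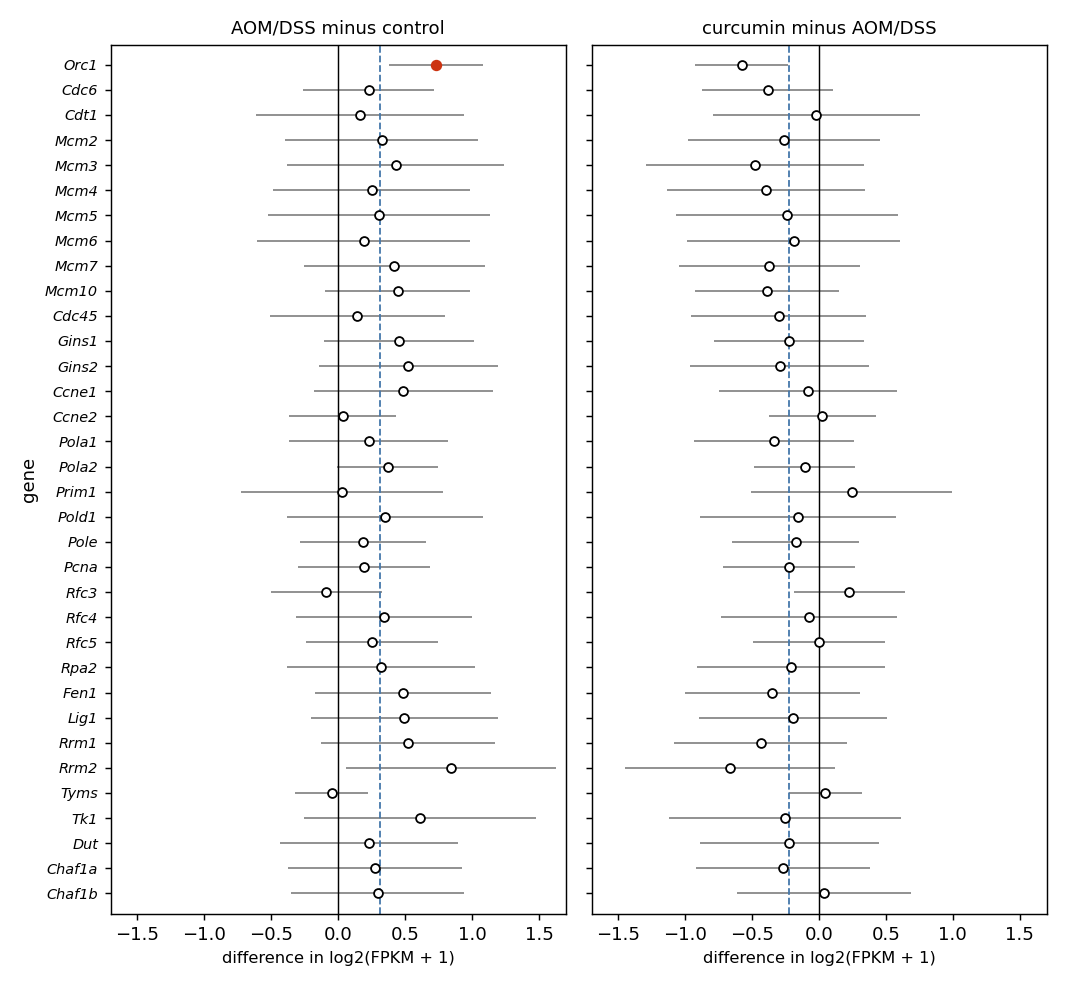
Difference in log2(FPKM + 1) of each replication gene (points) with its 95% interval (lines) for AOM/DSS minus control (left) and curcumin minus AOM/DSS (right). The filled point is the gene past the test, Orc1 at 0.73, and the dashed lines mark the medians of the 34 genes, 0.31 and -0.22.

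The other licensing genes pointed the same way in mean without passing. Cdc6, the loader ATPase that Orc1 recruits, was the least abundant gene of the set, with 1.05 ± 0.627 FPKM in control, 1.38 ± 0.553 in AOM/DSS and 0.800 ± 0.259 in curcumin. The groups overlapped for Cdc6, and its difference between AOM/DSS and control was 0.23 (SE 0.23). Cdt1, which brings the helicase to the origin, had a difference of 0.16 (SE 0.36), and its values followed the base composition of the library, as given further on.

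The 6 helicase subunits moved as a block from library to library. Mcm7 had 16.9, 11.8, 31.5 and 9.87 FPKM in control, 20.2, 32.0, 13.9 and 23.8 in AOM/DSS, and 12.4, 20.2, 17.7 and 16.4 in curcumin. Its highest control library was nearly as high as its highest AOM/DSS library, and the 3 groups overlapped. Mcm6 and Mcm7 were the most abundant 2 subunits in 12 of 12 libraries, and Mcm4 was the least abundant in 11 of 12, with Mcm2 in control replicate 2. The highest subunit stood 2.22 to 3.32 times above the lowest within a library. The sum over the 6 subunits was 37.2 to 135 FPKM in control, 49.0 to 126 in AOM/DSS and 46.8 to 84.2 in curcumin. The differences between AOM/DSS and control ran from 0.19 (Mcm6) to 0.43 (Mcm3), each with a 95% interval that includes 0. With curcumin against AOM/DSS they ran from -0.48 (Mcm3) to -0.19 (Mcm6).

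Among the genes of origin firing, Mcm10, which helps to open the helicase, had 1.82, 1.55, 3.82 and 1.47 FPKM in control, 2.92, 4.88, 1.68 and 3.74 in AOM/DSS, and 1.92, 2.26, 1.98 and 2.52 in curcumin. AOM/DSS replicate 2 lay inside the control range, and control replicate 2 lay above 3 of the 4 AOM/DSS libraries. The GINS subunits Gins1 and Gins2 differed between AOM/DSS and control by 0.45 (SE 0.26) and 0.52 (SE 0.31), and Cdc45, their partner in the active helicase, by 0.14 (SE 0.30). Ccne1 and Ccne2 encode the 2 E-type cyclins, whose kinase triggers entry into S phase. Ccne1 ran from 0.503 to 4.03 FPKM in control, the widest spread of any gene of the set there (8.01-fold), and rested on 5 reads in its lowest library. Its means were 2.30 in control, 3.37 in AOM/DSS and 3.03 in curcumin. Ccne2 hardly differed in mean, at 2.02 ± 0.539, 2.11 ± 0.739 and 2.12 ± 0.432 FPKM, and its highest library in AOM/DSS was replicate 3 and not replicate 1.

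Pcna, the clamp that holds the polymerases on DNA, was the most abundant gene of the set on the FPKM scale, with a mean of 77.3 over all libraries against 18.9 for the next, Mcm7. It had 58.8, 67.0, 128 and 54.7 FPKM in control, 82.6, 95.8, 62.3 and 95.3 in AOM/DSS, and 65.3, 72.5, 73.5 and 72.2 in curcumin. Control replicate 2 was the highest of all 12 libraries for Pcna, and without it the other 3 control libraries lay below 3 of the 4 AOM/DSS libraries. The difference between AOM/DSS and control was 0.19 (SE 0.23, limma adjusted p = 0.767).

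The polymerase subunits and the clamp loader gave the smallest median difference of any role with more than 2 genes, 0.24 between AOM/DSS and control over 10 genes. Pola2, the second subunit of the primase-polymerase complex, had 4.58 ± 1.25 FPKM in control and 6.18 ± 1.36 in AOM/DSS, a difference of 0.37 (SE 0.18, limma adjusted p = 0.383). Its catalytic partner Pola1 differed by 0.23 and the primase Prim1 by 0.03. Pold1, the catalytic subunit of the lagging-strand polymerase, differed by 0.35 (SE 0.34), and Pole, that of the leading strand, by 0.19 (SE 0.22). Of the loader subunits, Rfc3 was the gene lowest in AOM/DSS relative to control, at -0.09 (SE 0.19), while Rfc4 was at 0.34 and Rfc5 at 0.25. Rpa2, of the complex that coats open DNA strands, was at 0.32 (SE 0.33). Fen1 and Lig1, which trim and seal Okazaki fragments, were at 0.49 (SE 0.30) and 0.49 (SE 0.32).

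The genes of nucleotide supply held both the largest difference and the steadiest gene. Rrm2 encodes the subunit of ribonucleotide reductase whose amount rises and falls with S phase. It had 3.97, 3.25, 10.1 and 2.29 FPKM in control, 6.87, 13.8, 4.32 and 11.8 in AOM/DSS, and 4.07, 5.87, 4.67 and 5.39 in curcumin. Of the AOM/DSS libraries, 2 lay above every control library, while replicate 2 lay just above the 3 low control libraries. Rrm2 had the largest difference of the 34 genes between AOM/DSS and control, 0.84 (SE 0.36, limma adjusted p = 0.330), and between curcumin and AOM/DSS, -0.66 (SE 0.36, adjusted p = 0.432), and passed neither test. Rrm1, the larger and steadier subunit, had 10.5 ± 5.87 FPKM in control, 14.7 ± 4.18 in AOM/DSS and 10.5 ± 2.33 in curcumin. The ratio of Rrm2 to Rrm1 was 0.299 to 0.559 in the control libraries, 0.446 to 0.741 in AOM/DSS and 0.404 to 0.583 in curcumin, so the ranges overlapped.

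Tk1, the salvage thymidine kinase of dividing cells, spread most within AOM/DSS, from 8.34 to 34.6 FPKM (4.15-fold), and its difference from control was 0.61 (SE 0.40, limma adjusted p = 0.549). Tyms, which makes thymidylate from scratch, was the steadiest gene of the set. It had 14.3, 13.7, 19.5 and 15.5 FPKM in control, 14.4, 17.3, 12.8 and 15.9 in AOM/DSS, and 15, 15.2, 16.2 and 15.9 in curcumin. The highest library stood 1.52-fold above the lowest, against 5.66-fold for Tk1 and 6.05-fold for Rrm2. Its difference between AOM/DSS and control was -0.05, with a 95% interval from -0.32 to 0.22. Tyms transcripts share stretches of at least 200 bases at 95% identity or more with many other transcripts, among them Reep3 (22.9 FPKM on average), A130077B15Rik (11.6), Map3k2 (6.87) and Tyms-ps (1.07), so reads may have been shared between them, and the part of this in its steady level was not tested. Dut, which clears dUTP so that uracil is not built into DNA, was at 0.23 (SE 0.31). Chaf1a and Chaf1b, the large subunits of the histone chaperone that works behind the fork, were at 0.27 and 0.30, each with an SE of 0.30.

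**Figure D3:**
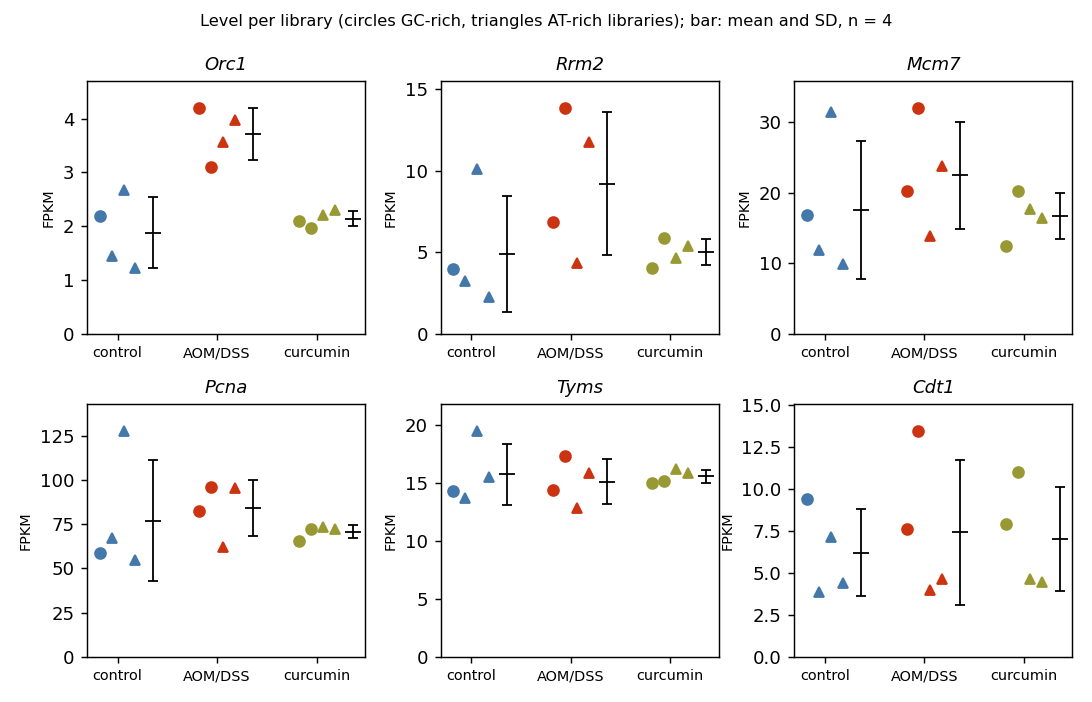
FPKM of 6 replication genes in each library, by group, with the mean and SD of the 4 libraries beside them (circles are GC-rich and triangles AT-rich libraries, and every axis starts at 0). Orc1 separates AOM/DSS, at 3.10 to 4.19 FPKM, from the other groups, Tyms is level, and in Cdt1 the circles lie above the triangles.

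Curcumin against AOM/DSS gave the reverse picture in mean, again with wide overlap. All 9 licensing genes were lower in mean with curcumin, from -0.58 (Orc1) to -0.02 (Cdt1), as were 5 of 6 firing genes, 8 of 10 polymerase and clamp genes, both Okazaki fragment genes, 4 of 5 genes of nucleotide supply and Chaf1a. The 5 genes higher in mean were Prim1 (0.24), Rfc3 (0.23), Tyms (0.05), Chaf1b (0.04) and Ccne2 (0.02). None of the 34 passed, against 1.08% of all genes, and Orc1 alone had an unadjusted p below 0.05, against 14.5% of all genes. Orc1 was also the 1 gene of 34 with all curcumin libraries below all AOM/DSS libraries, where 4.27% of all genes were so placed. None lay above without overlap, where 4.95% of all genes did. After Orc1 and Rrm2, the largest differences were those of Mcm3 (-0.48, SE 0.38), Rrm1 (-0.44, SE 0.30) and Mcm4 (-0.40, SE 0.34), with limma adjusted p of 0.619, 0.553 and 0.657.

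Between curcumin and control the means were closer. The differences ran from -0.16 (Cdc45, SE 0.30) to 0.41 (Ccne1, SE 0.31, limma adjusted p = 0.625), followed by Tk1 (0.36), Chaf1b (0.33), Lig1 (0.30) and Prim1 (0.27). No gene of the 34 passed, against 0.141% of all genes, and none had an unadjusted p below 0.05, against 12.2%. None of the 34 was separated between these groups in either direction, against 3.72% of all genes higher and 4.55% lower in curcumin. Orc1 differed by 0.15, with a 95% interval from -0.20 to 0.50.

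The spread within groups was the main feature of these genes. The highest library of a group stood above the lowest by a median of 3.39-fold over the 34 genes in control, 2.43-fold in AOM/DSS and 1.62-fold in curcumin. The same libraries stood out for most genes. In control, replicate 2 was the highest for 32 of 34 genes, and the lowest was replicate 3 for 19 and replicate 1 for 14. In AOM/DSS, replicate 1 was the highest for 30 and replicate 2 the lowest for 30, and in curcumin replicate 1 was the highest for 22 and replicate 0 the lowest for 25. The mean deviation of the 34 genes from their average over all libraries was 0.68 in AOM/DSS replicate 1 and 0.60 in control replicate 2, and -0.57 in both control replicates 1 and 3. Averaged over groups it was -0.14 ± 0.56 in control, 0.18 ± 0.42 in AOM/DSS and -0.04 ± 0.18 in curcumin (SD, n = 4).

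Leaving out single libraries moved the size of the median difference. For AOM/DSS minus control it was 0.59 without control replicate 2 and 0.50 without AOM/DSS replicate 2, and 0.11 without AOM/DSS replicate 1, 0.14 without control replicate 1 and 0.15 without control replicate 3. Over the fits with 1 control or AOM/DSS library left out, the number of genes with a higher mean in AOM/DSS was 28 to 34. Fits without a curcumin library could not move that number from 32. For curcumin minus AOM/DSS the median difference was -0.05 without AOM/DSS replicate 1, -0.41 without AOM/DSS replicate 2 and -0.34 without curcumin replicate 1. For curcumin minus control it changed sign, to -0.02 without control replicate 1 and -0.01 without control replicate 3, and was 0.35 without control replicate 2, 0.16 without curcumin replicate 0 and 0.02 without curcumin replicate 1.

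Base composition touched some members more than others. Cdt1 (59% GC) had 7.63 to 13.5 FPKM in the 5 GC-rich libraries and 3.86 to 7.17 in the 7 AT-rich ones. Pold1 (60.4% GC) had 4.93 to 9.93 and 2.47 to 4.86 FPKM. For both, every GC-rich library lay above every AT-rich library, whatever the group. Ccne2 (42.5% GC) was separated the other way, with 1.36 to 1.81 FPKM in the GC-rich and 1.9 to 3.20 in the AT-rich libraries. No other gene of the 34 was separated by the kind of library. The share of all genes so separated was not counted, and the kinds were themselves defined from the values of the genes tested. The separated genes are therefore a description and no trait of this set. Among AT-rich libraries alone the median difference between AOM/DSS and control was 0.10 (22 of 32 genes tested higher), and among GC-rich libraries alone it was 0.48 (33 of 33 higher). For curcumin minus AOM/DSS the medians were 0.02 and -0.51, with 15 of 32 and 30 of 33 genes lower in mean with curcumin. Orc1 was lower by similar amounts in both kinds, at -0.55 among AT-rich and -0.61 among GC-rich libraries. The difference between the kinds was not tested. The GC-rich set holds 1 control library and the AT-rich set 2 AOM/DSS libraries, so these are thin comparisons.

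Other genes of the pathway were taken from separate lists. Of 37 tested replication partners (further subunits, loading and firing factors, and fork proteins) none passed in any comparison, 24 were higher in mean in AOM/DSS than in control, and the median was 0.10. Dbf4, the activator of the kinase that fires origins, had 4.34 ± 1.13 FPKM in control, 7.08 ± 1.38 in AOM/DSS and 4.95 ± 1.07 in curcumin, with differences of 0.61 (SE 0.18, limma adjusted p = 0.143) and -0.44 (SE 0.18, adjusted p = 0.279). Nucleotide supply partners had a median of 0.20 with 0 of 17 called, and chromatin replication partners 0.12 with 0 of 11 called. Asf1b, a histone chaperone of dividing cells, was at 0.74 (SE 0.38). In the list for G1/S control, 1 of 28 tested genes passed. E2f2, an activating E2F factor, rose from 1.75 ± 1.32 to 7.39 ± 1.75 FPKM in AOM/DSS (log2 difference 1.71, limma adjusted p = 0.00922) and fell to 1.75 ± 0.333 with curcumin (-1.60, adjusted p = 0.0150). The list for the fork checkpoint had a median of 0.02 and 0 of 13 called, with Wee1, the kinase that holds back entry into mitosis, at -1.0 (SE 0.24, limma adjusted p = 0.0595).

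Genes of mitosis, like the replication genes, stood highest in AOM/DSS replicate 1 and lowest in control replicates 1 and 3, and their group means lay further apart. All 20 mitosis genes (such as Ccnb1, Aurkb and Ube2c) were higher in mean in AOM/DSS than in control, with a median of 0.81, and all 20 lower in curcumin than in AOM/DSS, with a median of -0.55; none of the 20 passed in either comparison. Replication minus mitosis level was -0.46 to -0.10 in the AOM/DSS libraries, -0.13 to 0.40 in control and -0.31 to 0.24 in curcumin. The AOM/DSS libraries thus lay low on this measure but overlapped both other groups. Curcumin replicate 3, at -0.31, lay below AOM/DSS replicates 0 (-0.24) and 2 (-0.10). In a fit chosen after seeing the data, with the mitosis level of each library as a covariate, the median difference of the replication genes between AOM/DSS and control was -0.32, with 2 of 34 higher, and none was called. The other medians turned too, to 0.15 for curcumin minus AOM/DSS (30 of 34 higher) and -0.14 for curcumin minus control (8 of 34 higher). The mitosis level itself differed between groups, with means of -0.39 in control, 0.46 in AOM/DSS and -0.07 in curcumin. The covariate thus takes out group difference, and the turned signs do not give the direction of the replication genes.

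**Figure D4:**
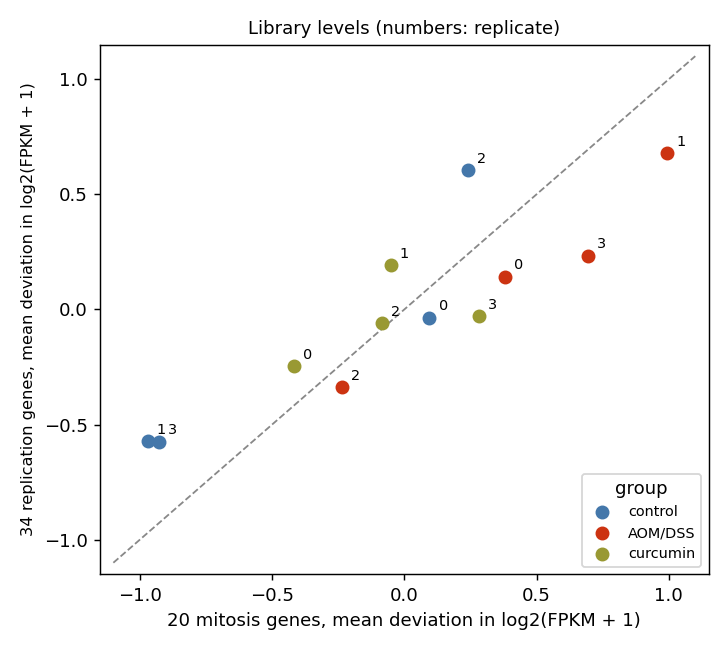
Mean deviation of the 34 replication genes (vertical axis) against that of the 20 mitosis genes (horizontal axis), both in log2(FPKM + 1) from the mean of all libraries, with 1 point per library and its replicate number. The dashed line marks equal values: the 4 AOM/DSS libraries lie below it, and control replicates 1, 2 and 3 above it.

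Markers of other cells were checked beside these values. Genes of surface colonocytes, which have left the cell cycle, had a median difference of -0.82 between AOM/DSS and control, with 4 of 10 called lower (Slc26a3, Car2, Car4 and Atp12a), and of 1.01 between curcumin and AOM/DSS, with 4 of 10 called higher. Crypt base and progenitor markers had medians of 0.30 and -0.07, with none of 9 called. Markers of B and plasma cells summed to 11.2 to 37.7 FPKM in control, 16.8 to 119 in AOM/DSS and 3.46 to 24.6 in curcumin. Their level was highest in AOM/DSS replicate 2 (mean deviation 2.00), the AOM/DSS library with the lowest replication level. Next came AOM/DSS replicate 1 (0.83) and control replicate 2 (0.47), the libraries with the highest replication levels. T cell markers summed to 5.38 to 7.56, 5.02 to 20.8 and 3.70 to 5.87 FPKM, and macrophage markers to 7.55 to 46.6, 16.3 to 56.3 and 4.13 to 29.2. None of the listed markers of these 3 cell types was near 0 in all libraries, and none passed the test. Nor did any tested marker of neutrophils, fibroblasts, endothelium, smooth muscle or red cells in the 3 comparisons. The part of these cells in the replication levels was not tested.

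Some members can share reads with other genes, since the strand setting of the counting is not given in the sources used here. In a later annotation (GRCm38) than the build of the files, exons on the opposite strand cover 84.2% of the exon bases of Fen1, 67.3% of Gins2 (Gse1, 16.5 FPKM) and 52.5% of Chaf1a (Ubxn6, 50.1 FPKM), and 17.4% of Ccne2. The share is smaller for Rfc4 (12.7%) and Rfc5 (10.7%), but their partners are far more abundant, Eif4a2 at 128 FPKM and Wsb2 at 72.9. Mcm7 shares 12.6% with Ap4m1 (9.64 FPKM). The values of these 7 genes, and of Orc1, are uncertain to that extent. Near-identical copies exist for Pcna (Pcna-ps2, 99.2% over 781 bases) and Mcm7 (Gm5487, 97.7% over 2157 bases), and shorter or less close ones for Cdc6, Rfc5 and Rrm2.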

How the data were processed

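The deposited values are FPKM, made by the authors, with 1 value per gene symbol and library. The submitters' processing notes list featureCounts 1.5.1, TopHat2 2.1.1, DESeq2 1.14.1, Bowtie2 2.2.6, R 3.4.0 and Picard with genome build mm9, without a role or order for each. FPKM were whole multiples of a step for each gene and library (tolerance 0.001) for 100% of 18191 genes above 0 in 2 or more libraries, which gave the read numbers. The logarithm log2(FPKM + 1) went into limma 3.58.1 (R 4.3.3, intensity trend, 12 libraries in 1 model, 9 residual degrees of freedom, Benjamini-Hochberg over 12052 genes), after tests on simulated data. Differences on this scale understate the change of low genes. Copies were searched with BLAST 2.17.0. The genes and lists were chosen with earlier results of these data known. Named were every gene past the test, the 5 largest differences per comparison, and up to 4 genes of each other list. Alternatives changed pseudocount, filter, scaling, model, base composition and libraries.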

Additional observations from a re-analysis of the deposited data

Results flagged for a closer look

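In groups of 4 libraries, the gap of the highest or lowest library to its neighbour was compared with the group's range for each of the 34 genes. Of 102 such groups, 4 (3.92%) were past Dixon's 95% critical value for 4 samples, and chance gives about 1 in 20. Control replicate 2 stood apart for Mcm10, with 3.82 FPKM where the next control library had 1.82, and for Pcna, with 128 FPKM where the next had 67.0. Curcumin replicate 0 stood apart at the low end for Pcna, with 65.3 FPKM where the next curcumin library had 72.2, and for Rrm1, with 6.98 FPKM where the next had 11.6. Control replicate 2 was also the highest control library for the mitosis genes (mean deviation 0.24) and for the fibroblast markers (1.26).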

How the results depend on the processing

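No gene changed direction in a call. The number of replication genes called for AOM/DSS against control, 1, was 0 with a pseudocount of 0.1, without a filter, with a filter at 5 FPKM (which leaves 24 of the genes and not Orc1), with a common sum, with quantile scaling, with only the compared groups fitted, within the AT-rich or the GC-rich libraries alone, and with the mitosis covariate added after seeing the data, and it ranged from 0 to 1 when each library was left out. With the replicate number as a block it was 0 (Orc1 adjusted p = 0.0726). The labels do not say what a shared number means, and 6 of 12 same-numbered pairs correlated over 0.1 in their deviations (range -0.333 to 0.456), 3 of them between AOM/DSS and curcumin (0.301 to 0.357), so the numbers were not taken as pairs. Of 12 libraries, 2 correlated best with their own number. Base composition goes with the number in part: replicate 0 was GC-rich and replicates 2 and 3 AT-rich in all groups. The median difference for AOM/DSS against control, 0.31, was -0.32 with the mitosis covariate, which also turned those of the other comparisons, -0.22 to 0.15 and 0.10 to -0.14. That covariate itself differed between the groups, so these turns do not measure dependence on processing. Library weights moved the median for curcumin against control to 0.25, with 33 of 34 higher. The number called for curcumin against AOM/DSS, 0, was 1 with library weights. Single genes without a call took the other sign in 61, 74 and 114 fits of the 3 comparisons, where 825, 830 and 790 fits kept sign and call. Many of the 61 came from the mitosis covariate alone, with which 2 of 34 genes were higher in AOM/DSS. Depth limits the low genes most, as Ccne1 with 5 reads and Gins1 with 9 in the shallowest library. Within the GC-rich libraries alone, the 1 control library was assumed to vary like the others. Over all genes, the number called ranged from 4 (AT-rich libraries alone) to 288 (library weights) against 153 for AOM/DSS minus control, from 1 to 468 in the same settings against 130 for curcumin minus AOM/DSS, and from 0 (either kind alone) to 491 (library weights) against 17 for curcumin minus control; the cause was not tested.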
